A study of Mus musculus with 2 samples.

Results

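The 9 genes described here mark the formative epiblast, and their signals were compared between control mouse embryonic stem cells and cells overexpressing the long noncoding RNA lincU. They are the transcription factor genes Otx2, Pou3f1, Sall2, Zic2, Zic5, Lef1 and Sox3, the growth factor gene Fgf5 and the cell adhesion gene Cdh2. They were taken as every probe set of the expression table that the array annotation named to one of these genes alone, which gave 1 probe set for each of the 9 genes, of 10313 genes in all. Both cultures were of the embryonic stem cell line 46C, whose Sox1 locus carries a green fluorescent reporter. They were kept on a feeder layer with 15% serum and leukaemia inhibitory factor (LIF) at 1000 U/ml, and this layer was taken off before the RNA was made. One culture is labelled as control and the other as overexpressing lincU, and how lincU was raised, from which vector or in how many clones was not stated in the labels used here. Each group had 1 Affymetrix 3' array, so every difference describes these 2 arrays and has no replicate check.

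Mouse embryonic stem cells in serum and LIF stand close to the naive epiblast of the blastocyst. When they leave that state they go through a formative phase, in which OTX2 and POU3F1 (also called OCT6) open enhancers of the post-implantation epiblast and Fgf5 is switched on. FGF-ERK signalling drives this exit, and ERK activity is a named subject of the study. Several of these genes go on to act in the neural plate, where Sox3, Zic2, Zic5 and Cdh2 are expressed.

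Of the 8 formative genes that could be compared, none differed by as much as 2-fold between the arrays, but 6 had a lower signal in the lincU-overexpressing cells. Sall2 and Pou3f1 differed most, Zic2 and Sox3 were the only ones of the 8 with a higher signal, and Fgf5 was too dim on both arrays to compare. The 4 genes Otx2, Sall2, Zic2 and Zic5 lie on chromosome 14, where neighbouring genes were lower together, and they are given apart. A gene was compared if it was bright, meaning that the array with its higher signal was at or above that array's own median over named probe sets, a log2 signal of 7.96 for control and 7.90 for overexpression. Lef1 and Sall2, 2 of the 6 lower genes, were bright through the control array alone, which favours a lower reading. Among all 5609 bright genes, 431 were bright through 1 array alone. Of the 5609, 1.3% were at least 2-fold lower and 1.53% at least 2-fold higher. At a threshold of 1.5-fold these shares were 6.69% lower and 4.65% higher, and of the 8 bright formative genes 2 were lower and 0 higher. One of them, Pou3f1, was the 1 of 4 outside chromosome 14, where 5.57% of bright genes outside the shifted stretch were this much lower. The other, Sall2, was the 1 of 4 in that stretch, where 51.9% of the other bright genes were. Without regard to size, 49.8% of bright genes were lower. Outside the shifted stretch 48.7% were lower, and 3 of the 4 bright formative genes there. Within it 95.5% of the other bright genes were lower, and 3 of the 4 formative genes. The median log2 difference, overexpression minus control, was 0.00 over all bright genes. It was -0.41 over the 4 bright formative genes outside chromosome 14. Over the 4 on that chromosome it was -0.46 as measured and 0.13 relative to the median of their stretch.

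The only repeated measurement was that between probe sets. In the 1732 genes read by more than 1 bright probe set, log2 differences within a gene had an SD of 0.23. When these genes were ranked by mean signal and divided into 3 equal classes, the dimmest class covers the range that holds 7 of the 8 bright formative genes, and there the SD was 0.30. In the middle class, whose range holds Cdh2, it was 0.22. It contains no variation between cultures, which 1 array per group cannot show.

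Outside chromosome 14, Pou3f1 showed the largest difference. Pou3f1 encodes a POU domain factor that works beside OTX2 as cells leave the naive state. Its probe set, 1422068_at, had a log2 signal of 8.96 without and 8.21 with lincU overexpression, which is -0.75 on the log2 scale or 1.68-fold lower. Of all bright genes, 3.74% had a difference as low or lower. The difference was 2.46 times the SD between probe sets at this signal. In bulk RNA, fewer cells with a transcript and less of it per cell cannot be told apart.

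Lef1, which encodes a DNA-binding partner of beta-catenin in WNT signalling, read 8.13 without and 7.60 with overexpression in log2 signal. The difference of -0.53, or 1.44-fold, was 1.74 times the SD between probe sets, and 8.13% of bright genes were as low or lower. On the overexpression array Lef1 was under the median signal, so that, like Sall2 on chromosome 14, it was bright through the control array alone. Its probe set, 1421299_a_at, is of the type whose name ends in _a_at, which reads several transcripts of a gene.

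Cdh2, which encodes N-cadherin, the adhesion protein that replaces E-cadherin as epiblast cells move towards mesoderm and neural fates, gave log2 signals of 9.87 on probe set 1418815_at without and 9.57 with overexpression. Its difference of -0.30, or 1.23-fold lower, was 1.37 times the SD between probe sets. Differences of at least this size in either direction were found in 32.8% of bright genes. Feeder fibroblasts also express Cdh2, so the feeder markers were read beside it. The summed signal of the 11 fibroblast markers in the table, of 15 listed, was 12.48 without and 12.51 with overexpression on the log2 scale, and no marker was at 0. The fibroblast collagen gene Col3a1 stood at 10.31 and 10.27. The part of feeder RNA in the Cdh2 signal was not tested.

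Sox3 went the other way. This X-linked gene encodes a SOXB1 factor closely related to SOX2. On probe set 1435192_at its log2 signal was 8.40 without and 8.72 with overexpression, 1.25-fold higher. This difference of 0.32 was 1.05 times the SD between probe sets. Of bright genes 13.0% were as high or higher.

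Fgf5, the secreted growth factor used most often to mark formative and primed epiblast, was listed on probe set 1426186_a_at at log2 signals of 5.59 without and 2.84 with overexpression. Both lay under the 25th percentile of their arrays, 5.73 and 5.65, a floor below which values were not compared, so no fold is given. Its level in either culture is thus not known from this probe set.

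With Fgf5 counted as no difference, the median log2 difference of the 5 genes outside chromosome 14 was -0.30. Over the 4 bright ones it was -0.41, with 3 lower and 1 higher, where 48.7% of bright genes outside the chromosome 14 stretch were lower. Lef1, 1 of the 3 lower, was bright through the control array alone.

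**Figure D1:**
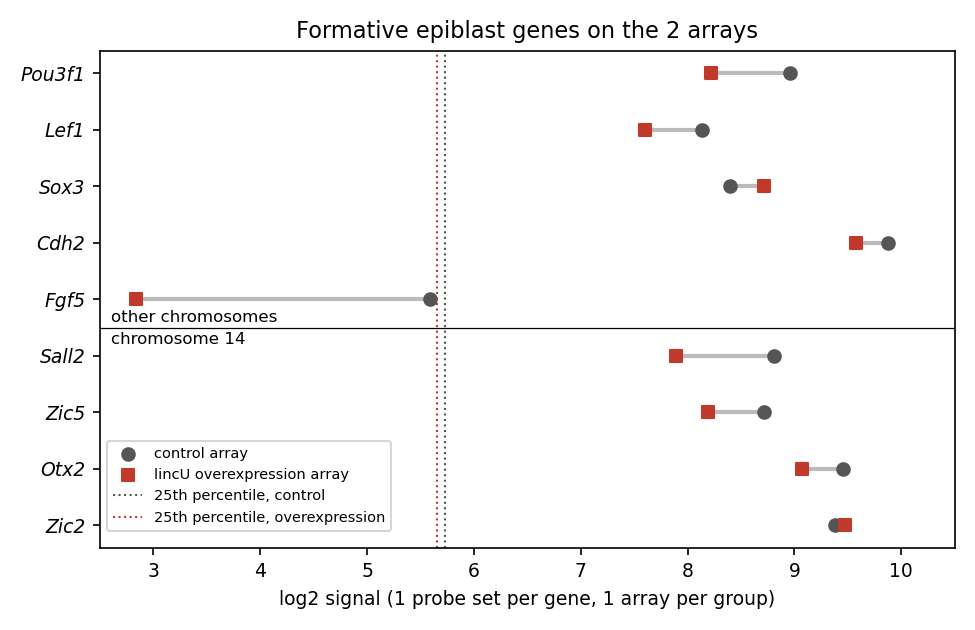
Log2 signal of the 9 genes (horizontal axis) on the control array (grey circles) and the lincU overexpression array (red squares), 1 probe set and 1 array each, with the 4 chromosome 14 genes below the line and the 25th percentile of each array dotted. Sall2 and Pou3f1 show the longest steps to lower signal among the genes above the floor, Zic2 and Sox3 the only steps to higher signal, and Fgf5 lies under the floor on both arrays.

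On chromosome 14 the signals were lower for Sall2, Zic5 and Otx2 and near equal for Zic2. Sall2, which encodes a zinc finger factor of the spalt family, had the largest difference of the 8 genes above the floor. On probe set 1416638_at its log2 signal was 8.81 without and 7.89 with overexpression. That is -0.92 on the log2 scale, or 1.89-fold lower, and 3.03 times the SD between probe sets. Sall2 was just under the median of the overexpression array, 7.90, and so was bright through the control array alone. Of all bright genes, 1.71% were as low or lower.

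Zic5 and Zic2 encode zinc finger factors of the same family and were next to each other among the bright genes of the chromosome. Zic5 (probe set 1425666_at) stood at a log2 signal of 8.72 without and 8.19 with overexpression, a log2 difference of -0.53 or 1.44-fold lower. Zic2 (probe set 1421301_at) stood at 9.38 and 9.47, a difference of 0.09, which is 0.31 times the SD between probe sets. For Zic5 the difference was 1.75 times that SD. The log2 differences of these neighbours were thus unequal, each read from 1 probe set with 1 array per group.

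Otx2, the homeobox gene whose product directs the exit to formative pluripotency, went from a log2 signal of 9.46 without to 9.07 with overexpression. The difference of -0.39, or 1.31-fold lower, was 1.28 times the SD between probe sets, and 13.6% of bright genes were as low or lower. Like Lef1 and Fgf5, Otx2 was read by a probe set that ends in _a_at, 1425926_a_at. The 4 chromosome 14 genes had a median log2 difference of -0.46.

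These 4 genes lie in a stretch from Tspan14 to Tmtc4 that holds 137 bright genes, with order taken from assembly GRCm38.p6. The limits of the stretch were set with earlier results of these data known, so its share of lower genes is a description only. Of the other 133 bright genes of the stretch, 127 (95.5%) were lower, and their median log2 difference was -0.59. At least 1.5-fold lower were 51.9% of these 133, against 5.57% of bright genes outside the stretch. The 4 genes were therefore also measured from the median of these neighbours. The cause of the shift along the chromosome was not tested.

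Measured from the stretch median, Sall2 stood at -0.33 and was the only one of the 4 below it. Of the 133 other genes, 14 were lower than Sall2. Zic5 stood at 0.06 above the median, with 78 of the 133 genes lower. Otx2 stood at 0.20, with 98 genes lower. Zic5 and Otx2 were thus lower than in control by less than the middle gene of their stretch on these arrays. Both gaps to that gene were smaller than the SD of 0.30 between probe sets at their signal. The gap of Sall2, -0.33, was close to that SD in size.

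Zic2 stood furthest from its surroundings, at 0.69 above the stretch median. Of the 133 other genes 130 were lower than Zic2 and 3 were higher, namely Shisa2 at 0.62, Lgals3 at 0.41 and Rb1 at 0.19. These 3 were picked after their values were seen. The median of the 4 formative genes after subtraction was 0.13, against -0.46 before it.

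**Figure D2:**
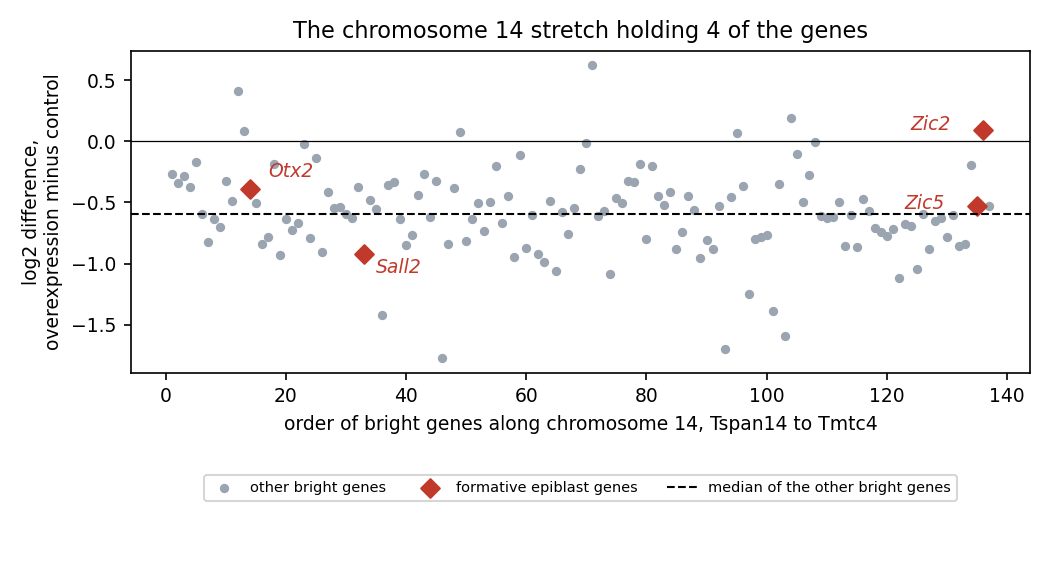
Log2 difference, overexpression minus control (vertical axis), of all 137 bright genes between Tspan14 and Tmtc4, both included, in their order on chromosome 14 (horizontal axis), with the 4 formative genes as red diamonds, the other 133 as grey points and the median of those 133 dashed at -0.59. Most genes lie under 0; Zic2 lies above 0, Otx2 and Zic5 lie above the dashed line and Sall2 lies below it.

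The same was done with the nearest genes. For each formative gene, up to 10 bright genes on each side were taken, leaving out the 9 genes themselves. The 20 genes around Sall2 had a median of -0.54 in log2 difference, and 1 of the 20 was lower than Sall2. Its nearest bright neighbours were Mettl3, which encodes the catalytic subunit of the RNA m6A methyltransferase, at -0.37, and Dad1, a subunit gene of the oligosaccharyltransferase, at -0.48.

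The 20 genes flanking Otx2 had a median of -0.61, and Otx2 was above 13 of them. The autophagy gene Atg14 beside it stood at 0.08 and Ap5m1, a subunit gene of an adaptor complex, at -0.51. Near the end of the stretch, Zic5 and Zic2 shared the same 11 flanking genes, with a median of -0.65. Of these 11, 9 were lower than Zic5 and all 11 were lower than Zic2. Their nearest bright neighbours were Clybl, which encodes a mitochondrial lyase, at -0.20 and Tmtc4 at -0.53.

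Away from chromosome 14 the medians of the neighbours were near 0, and the formative genes lay at varying distance from them. The 20 genes around Pou3f1 had a median of 0.06 and ranged from -0.62 to 0.32, so that Pou3f1 at -0.75 was lower than each of the 20. The 20 genes around Lef1 had a median of 0.00 and ranged from -0.48 to 0.39, and Lef1 at -0.53 was likewise lower than each. Lef1 was bright through the control array alone. For both Pou3f1 and Lef1, the gap to the lowest neighbour was smaller than the SD of 0.30 between probe sets at their signal. Around Cdh2 the median was -0.08 and 2 of 20 genes were lower than Cdh2. Around Sox3 the median was -0.03, and 4 of 20 were higher than Sox3.

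**Figure D3:**
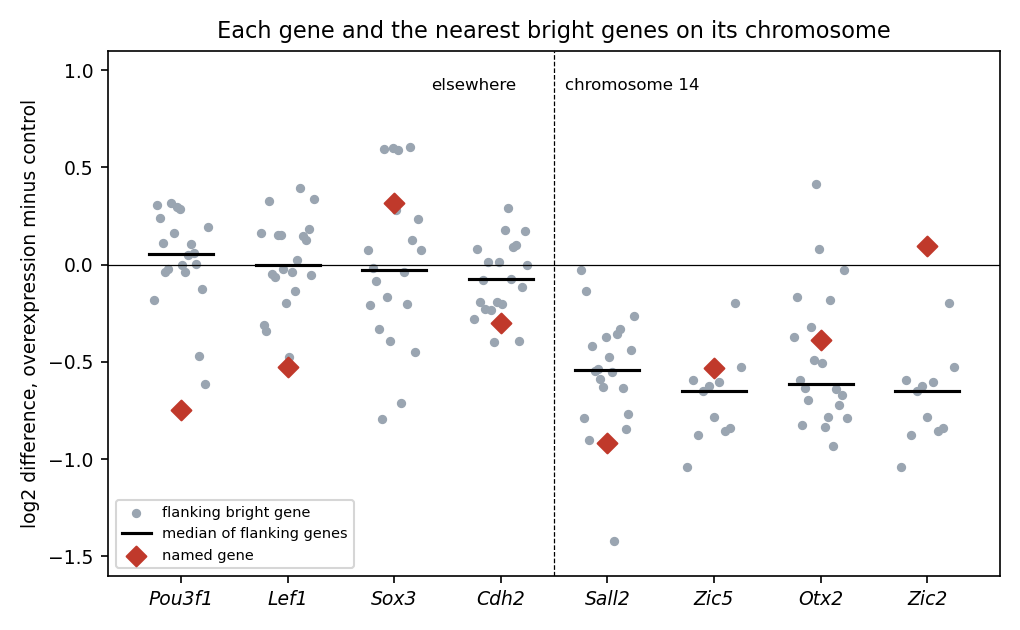
Log2 difference, overexpression minus control (vertical axis), of the 8 bright formative genes (red diamonds) beside up to 10 bright genes on each side of them (grey points, in chromosome order) and the median of those (black bar). Pou3f1 and Lef1 lie under all of their 20 neighbours, but under the lowest by less than the SD between probe sets. Zic2 lies above all 11 of its own, and the neighbours of the 4 chromosome 14 genes have medians between -0.65 and -0.54.

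Promoter sequence was at hand in RefSeq (GRCm38.p6) for 5 of the 9 genes, Otx2, Sall2, Zic5, Lef1 and Fgf5, with 12 start sites among them. The 250 bases before each start were searched on both strands for the letters that factors of these families are known to prefer. They were TAATCC for OTX, ATTTGCAT for POU factors, CTTTGA for LEF/TCF, ACAAAG for SOX and GGGTGGTC for ZIC, with TATAAA and GGGCGG for the TATA and GC boxes. Read on the other strand, CTTTGA shares CAAAG with the SOX letters. The 3 windows chosen are printed 5′ to 3′ on the gene's strand, with every match to these letters in capitals. Sall2 is shown because it had the largest difference, and Otx2 and Lef1 because the window holds the letters of the gene's own factor. The Sall2 window, before 1 of its 2 starts, is chr14:52316324-52316573 (minus strand), that of Otx2, before 1 of its 4 starts, is chr14:48665110-48665359 (minus strand) and that of Lef1, before the most downstream of its 4 starts, is chr3:131156044-131156293 (plus strand).
Sall2: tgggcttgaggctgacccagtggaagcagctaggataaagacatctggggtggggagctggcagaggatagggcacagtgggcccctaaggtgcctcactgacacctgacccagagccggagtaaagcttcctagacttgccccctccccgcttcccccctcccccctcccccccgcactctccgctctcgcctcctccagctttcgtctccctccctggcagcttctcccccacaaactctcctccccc
Otx2: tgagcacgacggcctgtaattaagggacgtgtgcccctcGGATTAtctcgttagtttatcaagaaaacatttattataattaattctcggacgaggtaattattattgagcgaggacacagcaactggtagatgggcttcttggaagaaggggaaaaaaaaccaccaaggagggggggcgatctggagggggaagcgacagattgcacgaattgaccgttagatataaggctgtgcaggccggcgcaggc
Lef1: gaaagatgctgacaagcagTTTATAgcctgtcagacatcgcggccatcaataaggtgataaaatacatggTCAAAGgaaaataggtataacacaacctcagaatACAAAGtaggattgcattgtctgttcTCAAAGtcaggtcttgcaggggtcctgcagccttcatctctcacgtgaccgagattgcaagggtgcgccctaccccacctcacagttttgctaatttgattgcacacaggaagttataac
The Otx2 window holds the OTX letters once, in reverse, starting 211 bases before the start site. The same letters stood in 6.25% of 32851 promoter windows of this length. The Lef1 window holds the LEF/TCF letters in reverse at 180 and at 120 bases before the start, and 13.8% of all windows hold them. Between these lie the SOX letters, at 146 bases before the start, found in 16.5% of all windows. It also holds the TATA letters in reverse, 231 bases before the start, which 12.4% of all windows hold. The Sall2 window holds none of the letters searched. Over the 12 windows, the OTX and LEF/TCF letters were each in 1, the SOX letters in 2, the TATA letters in 3 and the GC box in 4, the last against 32.7% of all windows. Of these 4, 2 are overlapping Lef1 windows that hold the same GC box. The POU and ZIC letters were in 0 of the 12, and in 1.6% and 0.703% of all windows. These matches describe the printed letters alone.

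Other genes used to mark the formative or primed epiblast did not all move one way. Of 14 listed, 11 were in the table and 10 were bright. Of these 10, 7 were lower and 3 higher, where 49.8% of all bright genes were lower. The median log2 difference of the 10 was -0.26. At least 2-fold lower were 2 of the 10 and at least 2-fold higher 1, where the shares over all bright genes were 1.3% and 1.53%. Cldn6, which encodes a tight junction claudin, went from a log2 signal of 8.87 without to 7.30 with overexpression, 2.97-fold lower, and was bright through the control array alone. Pim2, a serine/threonine kinase gene, went from 11.30 to 9.94, 2.56-fold lower. Foxd3, a forkhead factor gene needed in pluripotent cells, went from 8.29 to 9.32, 2.05-fold higher. The de novo DNA methyltransferase genes Dnmt3b and Dnmt3a differed by -0.83 and -0.56. The 4 bright probe sets of Dnmt3a lay between -0.92 and -0.45. None of the 11 lay in the chromosome 14 stretch.

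Transcription factors of the naive state, listed with earlier results of these data known, had a higher signal wherever measured. All 8 of the measured members, of 11 listed, were bright and higher in overexpressing cells, with a median log2 difference of 0.38, against 50.2% of all bright genes that were higher. Tbx3 differed by 0.92, Esrrb by 0.65, or 0.17 on its other bright probe set, and Nanog by 0.57. Nanog lies on chromosome 6, where 5 of its 20 flanking bright genes were higher than Nanog and their median was 0.34. At least 1.5-fold higher were 2 of the 8, against 4.65% of all bright genes. Of genes shared by naive and primed cells, 4 of 7 were lower, against 49.8% of all bright genes. The 7 had a median of 0.00, with Pou5f1 at -0.21 and Sox2 at 0.18. The largest differences among them were in Lin28a, which encodes a let-7 binding protein, at -0.53, or -1.45 on its other bright probe set, in Utf1 at -0.43 and in Dppa2 at 0.35. All 7 were bright, with a summed log2 signal of 15.81 without and 15.76 with overexpression, so both arrays held the markers of the labelled cell type.

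Relatives of the formative genes were mostly dim. Of 17 listed, 11 were in the table and 3 were bright. Tcf7l1, the repressor of the LEF/TCF family that limits naive self-renewal, differed by -0.43 beside Lef1 at -0.53. Fgf4, the ligand that starts the exit from the naive state, differed by 0.30. Cdh1, which encodes E-cadherin, stood at 13.10 and 13.07, a difference of -0.02 beside Cdh2 at -0.30. Sox1, the SOXB1 gene of the neural plate, was listed at 3.30 and 2.92, under both floors.

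Genes that work with LEF1 or respond to WNT showed no common direction. Of 8 bright members 5 were lower and 3 higher, with a median of -0.10, where 49.8% of all bright genes were lower. Tle4, which encodes a Groucho corepressor that binds LEF/TCF factors, differed by -0.84, and the related short protein gene Tle5 by 0.87. Tnfrsf19, a WNT-responsive receptor gene, differed by -1.09, but it lies in the chromosome 14 stretch and stood at -0.49 from its median. It passed the brightness rule on the control array only. The beta-catenin gene Ctnnb1, picked after its value was seen, differed by 0.02, or 0.25 on its other bright probe set.

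Of the 4 FGF receptor genes 2 were bright, and both were lower, where 49.8% of all bright genes were lower. Fgfr2, bright through the control array alone, differed by -0.73 and Fgfr1 by -0.17, or -0.74 on its other bright probe set. Among catenins and regulators of the cadherin switch, 5 of 6 bright genes were lower, with a median of -0.20, where 49.8% of all bright genes were lower. They included Zeb1, a repressor of E-cadherin, at -0.46, the plakoglobin gene Jup at -0.32 and Epcam at -0.21.

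**Figure D4:**
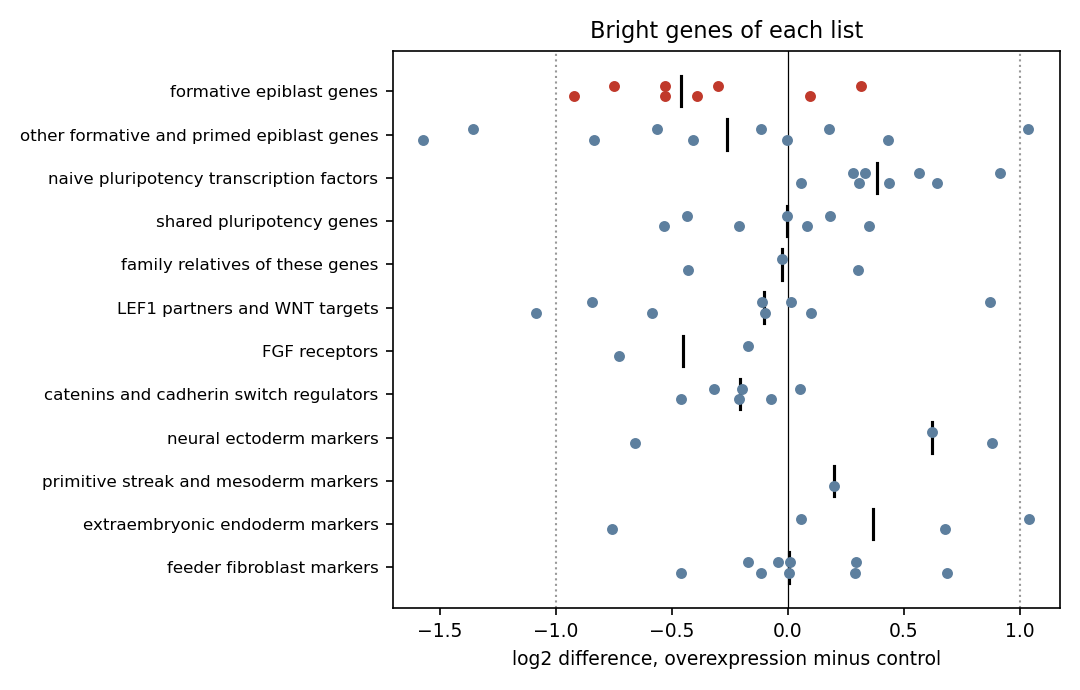
Log2 difference, overexpression minus control (horizontal axis), of the bright genes of each list, with a bar at the list's median and dotted lines at 2-fold. The 8 formative genes lie between -0.92 and 0.32 with a median of -0.46, but 4 of them are on chromosome 14 and carry its shift, with a median of 0.13 relative to their stretch; the 8 naive factors lie between 0.06 and 0.92 with a median of 0.38.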

How the data were processed

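RNA of 1 control and 1 lincU-overexpressing culture was labelled with biotin for Affymetrix 3' arrays, per the labels' protocols. The authors deposited a log2 signal for 16994 probe sets on each array. MAS5 and affy are named in the submitters' processing notes, without version or role; the scaling target was not stated there. The log2 scale was read from the range of 0 to 15.26. No further scaling was applied. Probe sets were named through the platform annotation, which gave 15273 a single gene, 501 several and 1156 none, and symbols were updated by gene ID to RefSeq (GRCm38.p6), where 15252 matched. No probe set was named lincU. The 25th percentile over named probe sets served as a floor on each array, to which lower values were raised, and a gene under it on both arrays was given a difference of 0. A gene was its probe set of highest mean signal. With 1 array per group there is no test, and precision is limited by the number of arrays. Lists were described by counts and medians. Besides the 9 genes, the text names the nearest bright genes beside those on chromosome 14, up to 3 bright genes of largest difference per list, and Dnmt3a, Dnmt3b, Tcf7l1, Sox1, Sox2, Cdh1, Nanog, Pou5f1, Fgf4 and Col3a1. The genes, lists and rules were chosen with earlier results of these data known. The method was tested on simulated data in which the differences planted in single genes were above 2-fold. Smaller differences in single genes, such as those of the formative genes, were not simulated. Python 3.11.15 with pandas 2.3.3 and statsmodels 0.14.6 was used.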

Additional observations from a re-analysis of the deposited data

How the results depend on the processing

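Centring, quantile normalization, a loess trend and a pseudocount left the direction of each of the 8 bright genes as it was. The other settings could not change these differences. None of the 8 lay under any of the floors tried, and each has 1 probe set, so averaging of probe sets had no effect on them. Leaving out probe sets of shared type took out Otx2 and Lef1 and left the rest as they were. Over all settings Sall2 lay between -0.92 and -0.79, Pou3f1 between -0.75 and -0.66, and Zic2 between 0.09 and 0.15. The median outside chromosome 14 lay between -0.53, with no floor, and -0.25, and was -0.41 without Fgf5, a setting added after the data were seen. The chromosome 14 median relative to its stretch lay between 0.06 and 0.18. At 1.5-fold the count of lower genes was 2 in place of 0. Fgf5 differed by -2.76 with no floor and by -0.77 with a pseudocount, so its difference depends on how values under the floor are treated. No paired analysis was possible because each group had 1 array. Signals near the floor limit what can be read for Fgf5 and most relatives.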

Other observations

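Markers of neural ectoderm and of primitive streak and mesoderm were mostly dim. Of 8 measured neural ectoderm markers, 3 were bright, with the eye and forebrain factor gene Pax6 at a log2 difference of 0.88, the neuronal tubulin gene Tubb3 at 0.62 and the intermediate filament gene Nes at -0.66. Pax6 was bright through the overexpression array alone. The median was 0.62 over the 3 bright genes, 0.32 with the probe sets of a gene averaged, and 0.12 over all 8 measured. Of 5 primitive streak and mesoderm markers Eomes alone was bright, with probe sets at 0.20 and -0.35. Of 8 extraembryonic endoderm markers 4 were bright, with the laminin gene Lama1 at 1.04, the collagen gene Col4a1 at 0.68 and Amn, which encodes the membrane anchor amnionless, at -0.76. Each of these 3 was bright through 1 array alone. The median was 0.37 over the 4 bright genes, 0.68 without probe sets of shared type, and 0.04 over all 8 measured. The feeder fibroblast markers had a median of 0.01 over 9 bright genes, with Pdgfrb at 0.69, Mmp2 at -0.46, or 0.20 on its other bright probe set, and Prrx1 at 0.29. The LEF1 and WNT list had a median of -0.35 without probe sets of shared type, against -0.10 with them.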
